A study of Homo sapiens with 8 samples.

Results

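Terminal oligopyrimidine (TOP) mRNAs are transcripts that begin with a C and an unbroken stretch of pyrimidines. Described here are 8 genes that have been counted among TOP or TOP-like mRNAs and encode neither ribosomal proteins nor initiation or elongation factors. The annotated starts at hand show such a stretch in 4 of them. They are TPT1, NAP1L1, RACK1, PABPC1, PABPC4, HNRNPA1, VIM and NPM1, 8 of the 4616 genes for which the authors deposited a change of translational efficiency (TE, ribosome footprints over mRNA). The genes were chosen by name, as mRNAs described with TOP or TOP-like starts, at a time when their deposited TE changes were already known. Their changes are therefore given as a description, with the authors' own p-values and no further test. Of the 8 symbols listed, 7 head a row of the table, and the remaining one, GNB2L1, is an older name of RACK1, under which the gene has its row. The cells were WM902B, an established BRAF-mutant line derived from a primary melanoma, all at passage 18. They had been infected with a scrambled control hairpin (shSCR) or with one that targets TINCR (shTINCR). TINCR was described as a long non-coding RNA of epidermal differentiation. Each condition gave 2 libraries of ribosome-protected fragments and 2 of RNA, 8 libraries in all, and in every group ribosomes were stalled with cycloheximide (100 µg/ml for 5 min). The labels name 1 hairpin for each condition, so an effect of TINCR and one of that hairpin cannot be told apart.

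TOP mRNAs are the best-known targets of translational control by the growth kinase mTORC1. When mTORC1 is active they sit on polysomes, and when it is inhibited the RNA-binding protein LARP1 can hold their capped pyrimidine start away from the initiation machinery, so that they leave polysomes and are stored. Most TOP mRNAs encode ribosomal proteins and translation factors. The genes described here have been counted among TOP or TOP-like mRNAs and have other tasks. PABPC1 and PABPC4 coat the poly(A) tail, RACK1 is a scaffold on the small ribosomal subunit, TPT1 encodes the growth-related protein TCTP, NAP1L1 and NPM1 are histone chaperones, HNRNPA1 is a splicing regulator and VIM encodes the intermediate filament vimentin.

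The feature that defines the class lies at the very first bases of the mRNA, and the annotated starts show how far each gene carries it. RefSeq promoter sequences (GRCh38.p14) were at hand for 5 of the 8 genes. In each 30-base window below, read 5′ to 3′ on the gene's strand, the annotated start is base 11. Capitals mark runs of C and T counted from a C that lies within 10 bases of the start and has at least 4 more C or T directly after it. The translation factors EEF1A1 and EEF2, whose TE fell far, are shown as classical TOP mRNAs. GNB1 and GNB2, relatives of RACK1 whose TE rose, are shown as starts in which that motif has no match. These genes were picked for contrast. The motif has no match either in VIM below, or in HSPA8 (TE change -0.73) and NAP1L4 (-0.27), which are not shown, and all of these fell.
TPT1, chr13:45341164-45341193, minus strand: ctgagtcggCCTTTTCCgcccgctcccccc
NAP1L1, chr12:76084666-76084695, minus strand: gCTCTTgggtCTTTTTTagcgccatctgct
RACK1, chr5:181243887-181243916, minus strand: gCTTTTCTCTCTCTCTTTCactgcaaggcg
NPM1, first start, chr5:171387839-171387868, plus strand: agcctgcgtCCTTTCCCTggtgtgattccg
NPM1, second start, chr5:171387106-171387135, plus strand: agCTCTCTTagggcgatgtccttgctaatt
VIM, chr10:17228231-17228260, plus strand: atcgtgatctgggaggcccacgtatggcgc
EEF1A1, chr6:73521013-73521042, minus strand: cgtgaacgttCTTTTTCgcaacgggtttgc
EEF2, chr19:3985444-3985473, minus strand: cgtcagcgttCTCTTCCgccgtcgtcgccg
GNB1, chr1:1891068-1891097, minus strand: ggctgcgggcaggggcccgccgcgcccatc
GNB2, chr7:100673730-100673759, plus strand: cagccgcgtcactggcgggcgggatccctc

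TPT1, NAP1L1, RACK1 and the first start of NPM1 have a C at the annotated start itself, followed by more pyrimidines. Counted from that C, the run is 7 bases long in TPT1 and in NAP1L1, 8 in NPM1 and 9 in RACK1. In RACK1 the run also extends upstream and is 18 bases long from its first C. VIM has a G at its annotated start and no run of the required length within 10 bases of it. That the letters are missing from this window says nothing about which start is used in these cells. With the window of 10 bases, 4 of the 5 genes (80%) had the motif, against 38.4% of 27305 genes with a promoter sequence and 41.7% of the 3857 genes of the deposited table that could be matched to one. A run beginning with a C exactly at the start is rarer. It was found in 5.14% of all genes with a promoter sequence and 8.66% of those in the deposited table, in 70.3% of 64 ribosomal protein genes, and in 4 of the 5 genes here. This stricter form was added after the sequences had been seen. On the opposite strand, the same motif within 10 bases was present in 36.2% of all genes and in 3 of the 5.

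The deposited table gives a log2 TE for each condition, the log2 change of TE (shTINCR over shSCR), a p-value and an adjusted p-value. It has 0 columns for single libraries, so no spread between replicates and no depth could be given. The error quoted below is the standard error (SE) that a change and its p-value imply together, with the p-value taken as that of a normal statistic. The median log2 TE over all genes lay near 0 in both conditions (0.0078 and 0.0019), and the median log2 change was 0.02. Levels and changes are thus relative to the typical gene. Of 9 melanocyte markers 8 had a row in the table, against 0 of 4 keratinocyte, 1 of 4 fibroblast, 0 of 3 leukocyte and 0 of 3 endothelial markers. TINCR itself had 0 rows, so its knockdown was not checked here.

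TE of all 8 genes was lower in shTINCR than in shSCR cells at the authors' adjusted p below 0.05, where 8.17% of all genes in the table fell and 8.23% rose. The genes had been named with these falls known, so nothing is read from that count. The log2 changes ran from -0.84 for NAP1L1 to -0.41 for RACK1, or 0.558-fold to 0.754-fold, in the authors' deposited table. Their median was -0.63 (0.648-fold), beside the 0.02 of all genes. NAP1L1 had the 7th largest fall of the 4616 genes, TPT1 the 11th, HNRNPA1 the 17th, VIM the 21st, PABPC1 the 34th, NPM1 the 57th, PABPC4 the 77th and RACK1 the 169th. The libraries are bulk, so a fall in every cell and a larger fall in some of the cells cannot be told apart. Nor does the table separate footprints from mRNA, so a lower TE can mean fewer footprints or more mRNA.

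**Figure D1:**
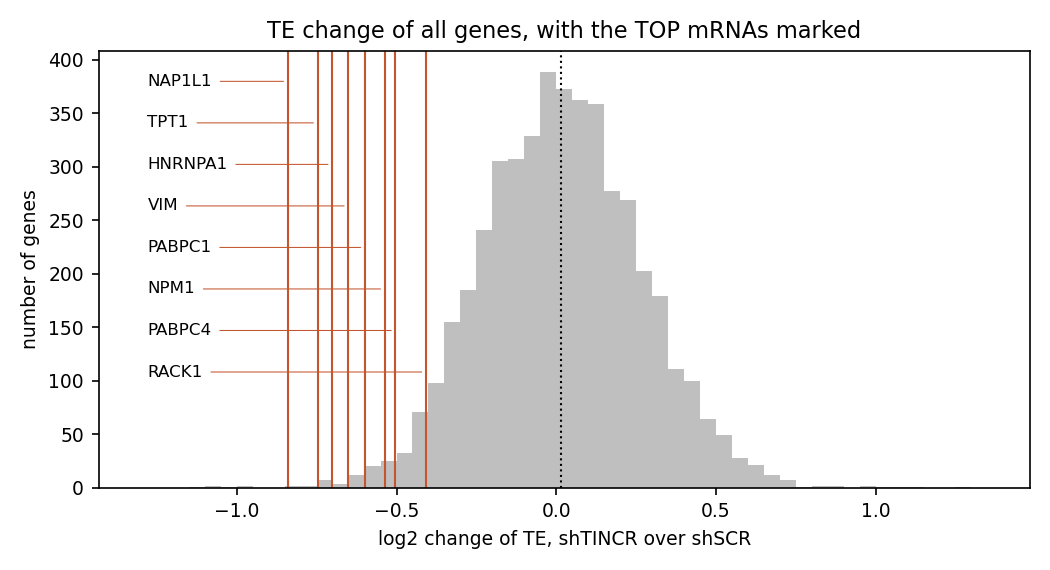
Histogram of the log2 change of TE, shTINCR over shSCR, for all 4616 genes in bins of 0.05 (grey; y axis, number of genes). Red lines mark the 8 genes described here and the dotted line the median of all genes at 0.02. The red lines lie between -0.84 and -0.41, in the left tail.

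Ordered by size, the changes formed a series in which none of the 7 neighbouring pairs differed by more than their combined implied SE. Sorting so few genes, all named with their falls known, makes small gaps likely, so nothing is read from that. The ends of the series lay further apart: NAP1L1 and RACK1 differed by 0.43 on the log2 scale, against a combined implied SE of 0.120. The implied SE of single genes ran from 0.078 to 0.112.

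In control cells the 8 genes had very different TE. HNRNPA1 had the highest log2 TE in shSCR cells (3.67), followed by VIM (1.66), TPT1 (0.58), RACK1 (0.27), NPM1 (-0.02), NAP1L1 (-0.62), PABPC1 (-0.87) and PABPC4 (-1.10) in the authors' deposited table. This is a span of 4.77 on the log2 scale. The changes spanned 0.43, but the genes were named with their falls known, so nothing is read from that narrower span. Changes over all genes were small as well, with an SD of 0.249. HNRNPA1 ranked 6th of 4616 genes and VIM 106th, whereas PABPC4 ranked 4056th. In shTINCR cells the order was the same but for one exchange: RACK1 (-0.14) stood above TPT1 (-0.17). How many of these neighbours differ beyond their error cannot be told, since the table gives no error for a level. Of the 8 genes 4 lay above the median of all genes in shSCR cells, and 2 (HNRNPA1 and VIM) in shTINCR cells. The median of their percentiles among all genes was 55.6 in shSCR and 34.3 in shTINCR cells.

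**Figure D2:**
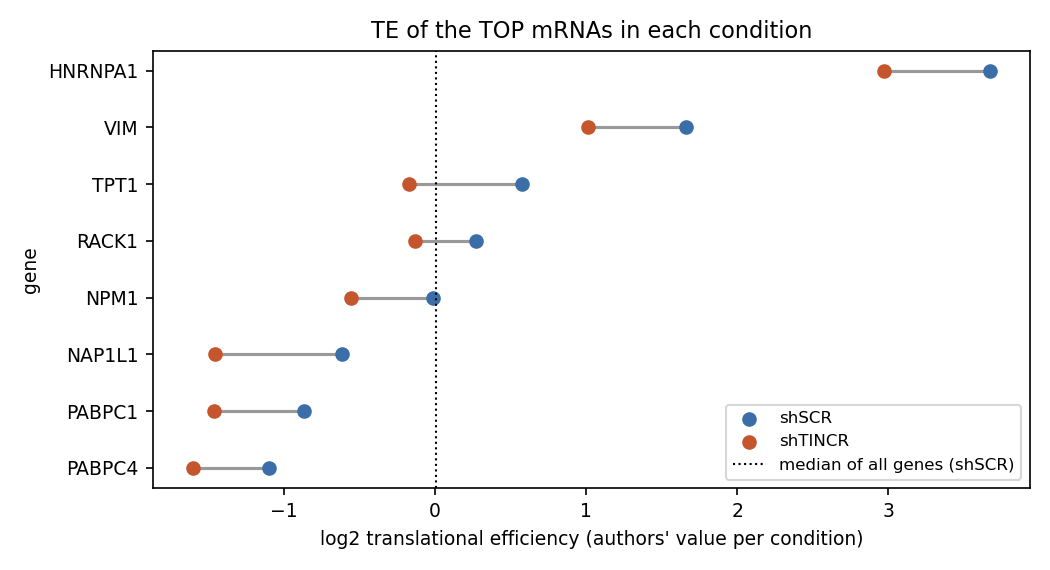
Log2 TE of each of the 8 genes (x axis) in shSCR (blue) and shTINCR (red) cells, 1 authors' value per condition, with the median of all genes in shSCR cells dotted. Each red point lies left of its blue point; TPT1 and RACK1 cross the median, and only HNRNPA1 and VIM stay right of it.

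The poly(A)-binding proteins, which join the mRNA's tail to the cap-binding complex, had the lowest TE of the set and fell further. TE of PABPC1, the main cytoplasmic form, went from a log2 value of -0.87 to -1.46 in the authors' deposited table, a change of -0.60 (0.660-fold, implied SE 0.1001, adjusted p = 2.37e-07). TE of its paralog PABPC4 went from -1.10 to -1.60 in the authors' deposited table, a change of -0.50 (0.705-fold, implied SE 0.112, adjusted p = 0.000316). Their changes differed by less than the implied SE of either. In shTINCR cells they stood at percentiles 6.35 and 4.72 of all genes.

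Besides these 2, 12 genes of a list of poly(A)-binding proteins and their partners had a row, with a median change of 0.04. Of these 0 fell and 0 rose, beside 8.17% and 8.23% of all genes. With 12 genes that is near the share of all genes, so nothing is read from it. LARP1, the TOP-binding repressor that also contacts PABPC1, had a value of 0.25 in the authors' deposited table (adjusted p = 0.0963). PAIP1, which binds PABPC1 and stimulates translation, was at -0.28 in the authors' deposited table (adjusted p = 0.109).

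TPT1 and RACK1 stood above the median of all genes in shSCR cells and below it in shTINCR cells. TE of TPT1, an abundant growth-related protein, fell from a log2 value of 0.58 to -0.17 in the authors' deposited table, a change of -0.75 (0.596-fold, implied SE 0.087, adjusted p = 3.72e-15). That took it from percentile 76.8 to percentile 42.0 of all genes. TE of RACK1, which links signalling kinases to the ribosome, fell from 0.27 to -0.14. Its change of -0.41 in the authors' deposited table (0.754-fold, implied SE 0.078, adjusted p = 1.35e-05) was the smallest of the set, although its C and T run is the longest among the 5 genes with a sequence.

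RACK1 is a WD-repeat relative of the β subunits of heterotrimeric G proteins, and of that family GNB1 and GNB2 rose. In the authors' deposited table GNB1 changed by 0.53 (1.45-fold, implied SE 0.115, adjusted p = 0.000187) and GNB2 by 0.37 (1.29-fold, implied SE 0.124, adjusted p = 0.026). GNB5 stood at 0.33 in the authors' deposited table (adjusted p = 0.143), and GNB4, named after its values were seen, at 0.0068 (adjusted p = 0.977). Of the 5 family members with a row, RACK1 fell, GNB1 and GNB2 rose, and the median of the 4 without RACK1 was 0.35. Over all genes 8.17% fell and 8.23% rose. The difference between RACK1 and its relatives was not tested. As the windows show, the pyrimidine run at the start of RACK1 has no match at those of GNB1 and GNB2.

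The histone chaperones gave the largest single fall of the set. TE of NAP1L1, which carries H2A-H2B dimers for nucleosome assembly, went from a log2 value of -0.62 to -1.46 in the authors' deposited table, a change of -0.84 (0.558-fold, implied SE 0.091, adjusted p = 2.28e-17). It dropped from percentile 24.4 to 6.46. TE of NPM1, the nucleolar chaperone that takes part in ribosome assembly, went from -0.02 to -0.55 in the authors' deposited table, a change of -0.54 (0.689-fold, implied SE 0.080, adjusted p = 3.15e-09).

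Relatives of these chaperones fell less or did not pass. NAP1L4, the measured paralog of NAP1L1, fell by 0.27 in the authors' deposited table (implied SE 0.097, adjusted p = 0.0396). NPM3, a paralog of NPM1, was at 0.12 in the authors' deposited table (implied SE 0.181, adjusted p = 0.708). Nucleolin (NCL), a nucleolar partner of NPM1, fell by 0.42 in the authors' deposited table (adjusted p = 0.000198), as did ANP32E, a chaperone of the variant H2A.Z, by 0.45 (adjusted p = 0.0324). Without NAP1L1 and NPM1, 13 genes of the list had a row, with a median of -0.13. Of these 3 fell (23.1%) and 0 rose, beside 8.17% and 8.23% of all genes. Whether NAP1L1 differs from NAP1L4, or NPM1 from NPM3, was not tested.

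HNRNPA1, an RNA-binding protein of splicing and mRNA export, kept one of the highest TE values in the table after its fall. Its log2 TE went from 3.67 to 2.97, or from rank 6 to rank 11 of all genes. The change in the authors' deposited table was -0.70 (0.615-fold, implied SE 0.108, adjusted p = 1.28e-08). Its closest paralogs lay below 0 but did not pass. The authors' deposited table has HNRNPA2B1 at -0.21 (adjusted p = 0.104) and HNRNPA3 at -0.26 (adjusted p = 0.131). On the first version of the authors' p-value their adjusted p was 0.0975 and 0.123, and on the second 0.0402 and 0.0297. Whether HNRNPA1 differs from them was not tested. Of 20 further hnRNP genes with a row, 5 fell (25%) and 1 rose (5%), beside 8.17% and 8.23% of all genes. Their median was -0.11. Those that fell were HNRNPD, a binder of AU-rich elements, with -0.60 (adjusted p = 0.00116), HNRNPDL with -0.37 (adjusted p = 0.00958), HNRNPH1 with -0.33 (adjusted p = 0.00243), HNRNPC with -0.31 and SYNCRIP with -0.27 in the authors' deposited table. HNRNPUL1 rose by 0.40 in the authors' deposited table. HNRNPC, SYNCRIP and HNRNPUL1 are named after their values were seen.

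VIM, the mesenchymal intermediate filament that melanoma cells make in large amounts, was well translated in both conditions. Its log2 TE went from 1.66 to 1.01 in the authors' deposited table, from percentile 97.7 to 89.3, a change of -0.65 (0.637-fold, implied SE 0.079, adjusted p = 3.9e-14). Nestin (NES), a filament protein of neural crest and melanoma cells that assembles with vimentin, fell by 0.71 (0.610-fold, implied SE 0.114, adjusted p = 4.76e-08) in the authors' deposited table. Lamin B2 (LMNB2) of the nuclear lamina rose by 0.43 in the authors' deposited table (adjusted p = 0.00413), and the linker protein dystonin (DST) was at -0.25 (adjusted p = 0.114). Besides VIM, 9 genes of filaments and their linkers had a row, of which NES fell and LMNB2 rose, with a median of -0.09. That is 11.1% each way, near the 8.17% and 8.23% of all genes.

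**Figure D3:**
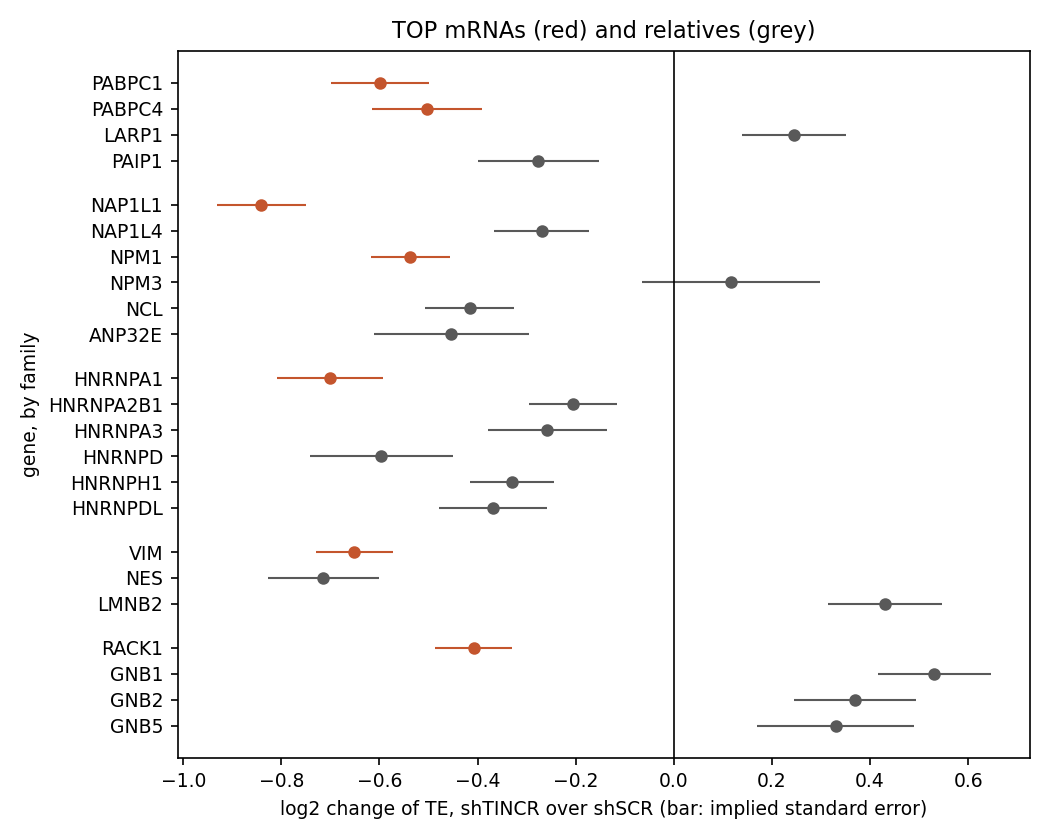
Log2 change of TE, shTINCR over shSCR (x axis), for 7 of the 8 genes (red) and named relatives (grey), grouped by family, with bars of 1 implied SE. GNB1, GNB2 and GNB5 lie right of 0 while RACK1 lies at -0.41, and VIM and NES lie side by side at -0.65 and -0.71.

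The gene whose pair of TE values lay nearest to that of each member, by Euclidean distance over the 2 conditions, was for some members a ribosomal protein. These nearest genes were RPL5 for TPT1 (distance 0.039), RPS9 for RACK1 (0.014), RPSA for PABPC1 (0.082) and RPL28 for HNRNPA1 (0.106), all on the log2 TE scale of the authors' deposited table. For VIM it was NCL (0.185), for NPM1 the kinase CDK7 (0.0031), for PABPC4 cyclin G1 (CCNG1, 0.024) and for NAP1L1 the centrosomal protein CEP57 (0.196). With 2 values per gene, such likeness describes only level and change. The members were named with their falls known, so genes near them tend to be ones that fell too. Ribosomal proteins are 78 of the 4616 genes, and 38 of them fell, beside 8.17% of all genes. No class likeness is therefore read from these neighbours.

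In the core of the TOP class, most of the listed translation factors fell, and 38 of 78 ribosomal proteins did. Of 14 TOP mRNAs of translation factors, 12 fell and 0 rose, beside 8.17% and 8.23% of all genes. Their median change was -0.62, and that of the genes described here -0.63. Both sets were named with earlier results known, so nothing is read from the likeness of these medians. EEF2 and EEF1A1, the factors of ribosome translocation and of tRNA delivery, fell by 1.14 and 1.05 in the authors' deposited table, and the initiation factors EIF4B and EIF3L by 0.997 and 0.74. The 2 that did not pass, named after their values were seen, were EIF4A2 with -0.26 (adjusted p = 0.086) and EEF1A2 with 0.17 (adjusted p = 0.407), values of the authors' deposited table. Ribosomal proteins of the cytosol, counted here with their paralogs, fell in 38 of 78 cases, rose in 3 and did not pass in the others, with a median of -0.20. The 4 with the smallest p-values were RPL13A (-0.98), RPL5 (-0.69), RPS24 (-0.70) and RPL4 (-0.63) in the authors' deposited table.

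Other mRNAs outside protein synthesis that are often counted as TOP or TOP-like fell less evenly. Of 13 with a row 8 fell and 0 rose, beside 8.17% and 8.23% of all genes, with a median of -0.29. This list too was drawn up with earlier results known. The import receptors IPO7 and IPO5 fell by 1.09 and 0.63 in the authors' deposited table, the RNA polymerase I factor TAF1D by 1.01 and the chaperone HSPA8 by 0.73. A pyrimidine start did not always go with a fall. FAU (0.04), HINT1 (-0.05), COX7C (-0.03) and PFDN5 (-0.09), named after their values were seen, each have a C and 5 or more further pyrimidines at the annotated start. The authors' deposited table gives them adjusted p-values of 0.817, 0.763, 0.871 and 0.585. Nor did a fall always go with such a start: the run from the annotated start was 3 bases in HSPA8 and 0 in IPO5.

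Among regulators of TOP mRNAs, most did not pass. Of 15 with a row 4 rose (26.7%), 2 fell (13.3%) and the others did not pass, beside 8.23% and 8.17% of all genes, and their median was 0.15. EIF4EBP1, the cap-binding inhibitor that mTORC1 switches off, rose by 0.52 in the authors' deposited table (adjusted p = 0.00335), and DDIT4, an upstream inhibitor of mTORC1, by 0.40 (adjusted p = 0.00242). AKT1 and RPTOR, named after their values were seen, also rose, and the authors' deposited table gives 0.56 (adjusted p = 0.0133) and 0.42 (adjusted p = 0.0464). SSB, the La protein, which also binds TOP mRNAs, fell by 0.36 in the authors' deposited table (adjusted p = 0.00602) and HNRNPD by 0.60. mTORC1 activity was not measured in these data.

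**Figure D4:**
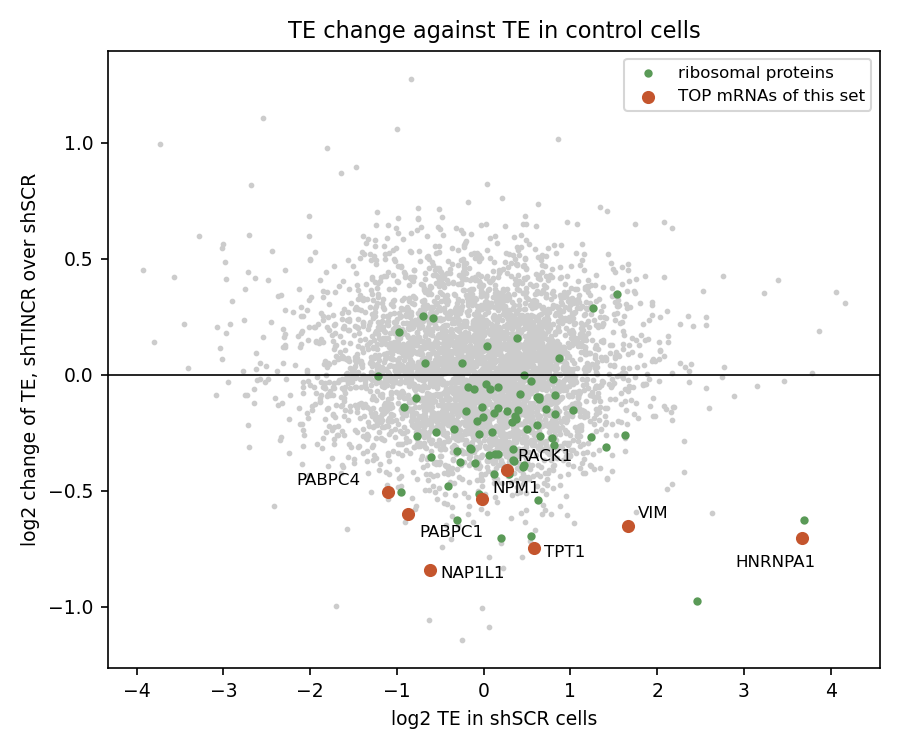
Log2 change of TE (y axis) against log2 TE in shSCR cells (x axis) for all 4616 genes (grey). The 78 ribosomal protein genes are green and the 8 genes described here red. The red points span log2 TE values from -1.10 to 3.67 and all lie at or below -0.41.

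The start sequence was then set against the TE change over the whole table, leaving out the 8 genes, ribosomal proteins, the listed translation factors and the other listed TOP mRNAs. Among 269 remaining genes whose annotated start is a C followed by at least 4 pyrimidines, 39 fell (14.5%) and 16 rose (5.95%), with a median change of -0.06. Among 3499 genes with no such start, 227 fell (6.49%) and 290 rose (8.29%), with a median of 0.03. Split by length, 26 of 183 genes with a run of 5 to 7 bases fell and 14 rose, and 13 of 86 with a run of 8 or more fell and 2 rose. Among ribosomal proteins, left out above, 23 of 45 with such a start fell (51.1%, median -0.23) and 0 rose. Without it 9 of 19 ribosomal proteins fell (47.4%, median -0.19) and 2 rose, so the annotated start hardly separated them. These are descriptions of 1 comparison, and genes are not replicates. The medians of the 269 and of the 3499 genes lie far from the -0.63 of the 8 genes, and most of the 269 did not pass. The 8 genes were named with their falls known, so nothing is read from that distance.

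**Figure D5:**
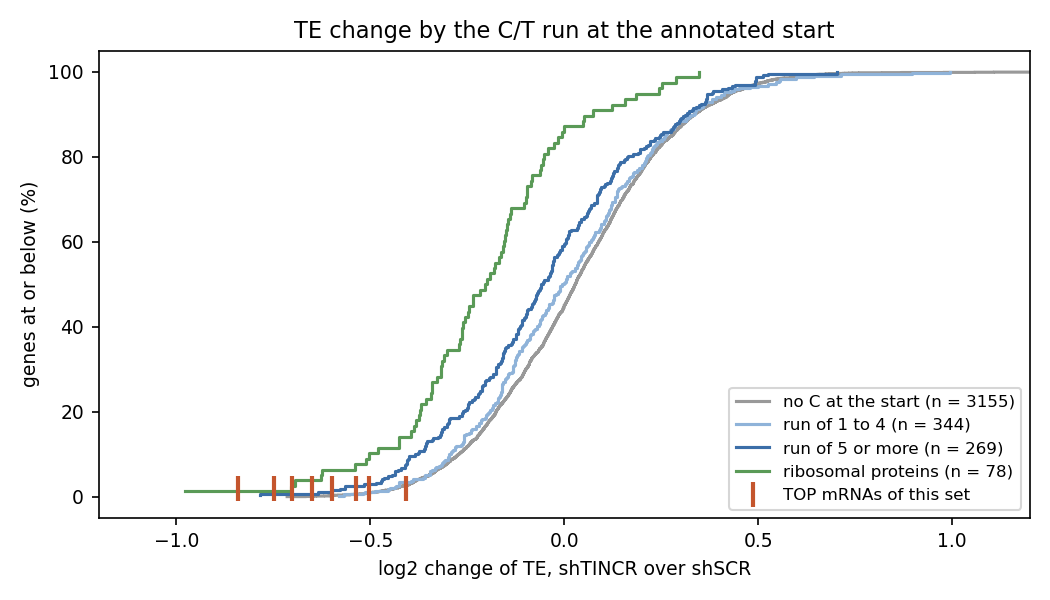
Cumulative share of genes (y axis, percent) by log2 change of TE (x axis), for genes outside the TOP lists with no C at the annotated start (3155 genes), a C and T run of 1 to 4 bases (344) or of 5 or more (269), and for 78 ribosomal proteins. Red ticks mark the 8 genes described here. The curve of the longest runs lies slightly left of the others, and that of ribosomal proteins further left.

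Reads that several copies share could shift single values of this set. By name, HNRNPA1 has 75 pseudogenes in RefSeq, NPM1 50, TPT1 14, PABPC1 13, NAP1L1 and RACK1 3 each, and PABPC4 and VIM 0. The 4 genes with at least 10 had a median change of -0.65 and the 4 with fewer one of -0.58. VIM, with 0, fell by 0.65. Small nucleolar RNA genes lie inside TPT1 and RACK1 (2 each) and PABPC4 (1). Their median was -0.50, and that of the other 5 was -0.65. All 8 genes were named with their falls known, so nothing is read from either split. Over the table, without the 8 genes, ribosomal proteins and translation factors, 20% of 60 genes with at least 10 named pseudogenes fell and 8.33% rose, while 5.59% of 3452 genes with 0 fell and 9.01% rose. With a small nucleolar RNA gene inside, 16% of 200 genes fell and 4.5% rose, while 6.65% of 4316 without one fell and 8.53% rose. Among genes outside the lists that have neither trait, 21 of 180 with the pyrimidine start fell (11.7%) and 15 rose (8.33%), with a median of -0.0075. Without that start, 132 of 2564 fell (5.15%) and 231 rose (9.01%), with a median of 0.04. The part of shared reads in the values of single genes was not tested.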

How the data were processed

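Per the labels, footprints were made with RNase I and sucrose gradients and sequenced beside RNA that the titles call total and a label field calls poly(A). TopHat2 2.0.8, Bowtie2 2.1.0, HTSeq 0.5.3p9, DESeq 1.10.1 and hg19 are named without roles, per the submitters' processing notes. The sources used here do not give the filters or the tool behind the table. The deposited log2 values are, per the file headers, TE per condition and its change in 2 versions with a final choice. The deposited p-values are those of each version, a final one (the larger in all 4616 rows) and an adjusted one, which equalled a Benjamini-Hochberg adjustment within 2e-15. The second version of the change equalled the difference of the TE values within 0.00873. The authors' values were used as given, at an adjusted p below 0.05, and no count test was possible. The implied standard error is the size of the change over the normal quantile of its p-value.

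The members and gene lists were chosen with earlier results of these data known. Named are all members, the 4 genes of each list with the smallest p, fixed paralogs, and the nearest gene to each member. Other names are marked as chosen after their values were seen. Symbols were matched to RefSeq (GRCh38.p14): 4465 were current, 139 older names and 12 unmatched. Promoter sequences run from 250 bases before to 50 after a start, and a gene counts when any of its starts has the motif. Pseudogenes were counted by symbol (the gene's symbol, P and a number). Values were computed in Python 3.11.15 with scipy 1.17.1, numpy 2.4.6 and pandas 2.3.3 and drawn with matplotlib 3.10.9, and the functions were tested on simulated data.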

Additional observations from a re-analysis of the deposited data

How the results depend on the processing

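All 8 genes lay below 0 in both versions of the authors' estimate and after subtraction of the median of all genes. They were past the threshold in these settings too, with a Benjamini-Yekutieli adjustment, and at an adjusted p below 0.01. The final p-value is the larger of both versions in all 4616 rows. A gene past the threshold on the final p-value therefore passes in both versions, so nothing is read from that. With a minimum of 0.5 on the log2 scale RACK1 was lost and 7 remained. The median change stayed between -0.65 and -0.60 when each gene was left out in turn. The median percentile of the 8 genes in shSCR cells was 52.0 among genes with an implied standard error below the median. The pyrimidine motif was present in 100% of the 5 genes within 25 bases of the start, beside 61.3% of all genes with a promoter sequence. Within 5 bases it was present in 80%, beside 25.2% of all genes. With at least 7 pyrimidines after the C it was present in 60%, beside 11.3%. No paired analysis was possible because the table has no column for a single library; leaving out a replicate was not possible for the same reason. Depth and the spread between the 2 replicates are unknown, and the annotated start may not be the one used in these cells.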
